A study of Mus musculus with 24 samples.

Results

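The transcripts of 10 neuropeptide receptor genes were followed in the CA1 subfield of the mouse hippocampus, namely the somatostatin receptors Sstr1, Sstr2, Sstr3 and Sstr4, the neuropeptide Y receptors Npy1r and Npy2r, the melanocortin receptor Mc4r, the neuropeptide B and W receptor Npbwr1, the orexin receptor Hcrtr2 and the neurokinin receptor Tacr1. They were taken by symbol from a list of names, with no threshold on a measured value. The list was chosen with earlier results of these data known. These receptors are 10 of the 38355 genes counted, of which 27576 had at least 1 read. All 10 passed the filter on low counts in every comparison. C57BL/6J mice aged 3 to 5 months were compared by genotype and by exposure, and RNA from dissected CA1 was sequenced after selection of polyadenylated transcripts. Controls carried Kat2a fl/fl, and conditional knockouts (cKO) carried Kat2a fl/fl; CamKII_alpha-cre+, so the floxed allele is shared by all animals. Mice were naive or had 15 min of novelty exposure, which gave 6 libraries of naive controls, 5 of controls after novelty, 6 of naive cKO and 7 of cKO after novelty. Kat2a encodes a lysine acetyltransferase of coactivator complexes. The CamKII-alpha promoter drives Cre in excitatory neurons of the forebrain, so interneurons, glia and vessels of the dissected tissue are not targeted. The labels do not say that each library came from its own mouse, so p-values measure the spread between libraries.

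Neuropeptide receptors are G-protein-coupled receptors that bind peptides released mostly from dense-core vesicles, and they act more slowly and over longer distances than ion channels gated by transmitters. Somatostatin, neuropeptide Y and neuropeptide B/W receptors couple to Gi/o proteins, which lower cyclic AMP and open potassium channels. Mc4r couples to Gs and raises cyclic AMP, while Hcrtr2 and Tacr1 couple mainly to Gq and mobilise calcium. In the hippocampus, somatostatin and neuropeptide Y are made by local interneurons, whereas orexin arrives on fibres from the hypothalamus.

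Sstr2 and Sstr4, both receptors for somatostatin, are the receptor genes whose transcripts were higher after novelty in the average over genotypes and for which a RefSeq promoter entry was at hand, so their upstream sequence is printed here. RefSeq promoters (build GRCm38.p6) matched 7 of the 10 receptors. The 250 bases before the start site were searched on both strands for the cyclic AMP response element TGACGTCA, its shorter core TGACG, the E-box CACGTG, the GC box GGGCGG and the TATA box TATAAA. The full element contains the core on each strand. Capitals mark matches. Sstr2 lies on chromosome 11 (113619342 to 113626028, plus strand), and the stretch shown is chr11:113619077-113619326 (GRCm38.p6, plus strand). Sstr4 lies on chromosome 2 (148395377 to 148400503, plus strand), and the 217 bases shown, chr2:148395127-148395343 (GRCm38.p6, plus strand), end before the first exonic base of any annotated transcript.
Sstr2: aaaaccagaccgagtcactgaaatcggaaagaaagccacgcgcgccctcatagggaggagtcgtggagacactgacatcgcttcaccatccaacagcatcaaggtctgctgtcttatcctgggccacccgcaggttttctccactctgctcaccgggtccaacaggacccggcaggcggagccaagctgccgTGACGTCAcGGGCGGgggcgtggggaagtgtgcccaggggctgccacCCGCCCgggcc
Sstr4: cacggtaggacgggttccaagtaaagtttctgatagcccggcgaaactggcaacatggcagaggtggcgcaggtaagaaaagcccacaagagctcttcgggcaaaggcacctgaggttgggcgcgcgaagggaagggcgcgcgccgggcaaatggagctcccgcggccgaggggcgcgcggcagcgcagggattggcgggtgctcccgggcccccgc

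The Sstr2 window held the full element with its first base at position -58 from the start site, which 1.55% of 32851 promoter windows of this length held. It also held 2 GC boxes, a motif found in 32.7% of the windows. None of the searched motifs was found in the 250 bases before Sstr4. Among the other receptors, the core TGACG, present in 17.8% of windows, was found for Sstr3 and Tacr1, the E-box, present in 6.02%, for Sstr3, and the GC box for Npy2r. The Sstr3 matches lay only in the window chr15:78544346-78544595, which overlapped annotated exons. None was found in its other window, chr15:78541407-78541656, which overlapped 0 exonic bases. The Tacr1 window also overlapped annotated exons. The TATA box, present in 12.4% of windows, was found for no receptor searched. These are matches of letters and not measured binding.

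Assigned reads ranged from 10.7 to 35.8 M (mega) per library. Kat2a was 56.0 to 70.3 CPM (reads of a gene per mega reads of its library, with library sizes normalized by TMM) in control libraries and 31.2 to 39.3 CPM in cKO libraries, with no overlap. Its reads were counted over the whole gene, and the labels used here do not say which exons Cre removes. The activity-induced genes Fos, Egr2 and Arc had higher group means after novelty in both genotypes, with Fos at 3.17 ± 1.36 CPM (SD, n = 6) in control naive and 31.3 ± 8.81 CPM (SD, n = 5) in control novelty libraries. Markers of CA1 pyramidal neurons summed to 788 to 1130 CPM in every library, and markers of CA3 (129 to 279 CPM), dentate granule cells (53.6 to 252 CPM) and subiculum (56.0 to 161 CPM) were also detected. No gene of these marker lists was at 0 in all libraries.

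Receptor levels differed widely when they were set per exonic kilobase. In control naive libraries Sstr4, a somatostatin receptor known for its part in the potassium M-current of CA1 pyramidal cells, stood at 41.9 ± 2.22 CPM per kilobase (SD, n = 6). This was above 95.6% of the 26843 genes with a known exonic length and at least 1 read over the 24 libraries. Npy1r followed at 12.3 ± 1.40 and Npy2r, a presynaptic receptor that limits glutamate release, at 9.94 ± 2.70 CPM per kilobase. Sstr3, a receptor of neuronal primary cilia, stood at 8.01 ± 0.729, Sstr1 at 7.09 ± 1.45 and Sstr2 at 5.17 ± 0.571 CPM per kilobase. The lower-expressed receptors were Mc4r at 1.74 ± 0.455, Npbwr1 at 1.59 ± 0.326, Hcrtr2 at 0.699 ± 0.119 and Tacr1 at 0.429 ± 0.131 CPM per kilobase. Gaps between neighbours in this order exceeded the sum of their SDs for Sstr4 over Npy1r (a ratio of 3.39), Sstr2 over Mc4r (2.98), Npbwr1 over Hcrtr2 (2.27) and Hcrtr2 over Tacr1 (1.63). From Npy1r to Sstr2, and between Mc4r and Npbwr1, gaps between neighbours did not exceed the sum of their SDs. Within the 6 control naive libraries, Npy1r lay above Npy2r in 5, Npy2r above Sstr3 in 5 and Sstr3 above Sstr1 in 4. Sstr1 lay above Sstr2 in 6 of them, and Mc4r above Npbwr1 in 2. Over all 24 libraries the gap of Hcrtr2 over Tacr1 did not exceed the sum of their SDs (a ratio of 1.35). Exonic lengths came from GENCODE M21, which need not be the annotation used for counting.

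**Figure D1:**
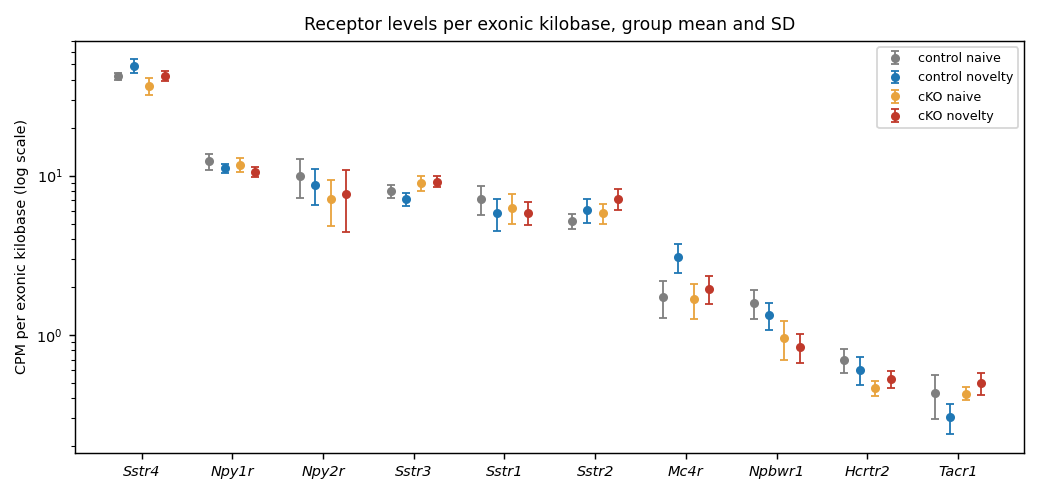
Receptor levels as CPM per exonic kilobase on a log axis, as group mean (point) and SD (bar) for each of the 4 groups. Sstr4 stood highest in every group, at 41.9 CPM per kilobase in control naive libraries, and Hcrtr2 and Tacr1 stood lowest.

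Before correction for length, control naive means ran from 2.78 CPM for Tacr1 to 59.6 CPM for Sstr4. The least expressed receptor, Tacr1, had 17 to 78 reads per library, and Hcrtr2 had 35 to 153, so their levels carry more counting error than those of Sstr4, with 614 to 2210 reads. Npy2r had a coefficient of variation of 25.5 to 42.0% in the 4 groups, the highest of the receptors except in control naive libraries, where Tacr1 reached 30.5%. Npy1r, a receptor for the same peptide, varied by 7.08 to 11.3%.

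**Figure D2:**
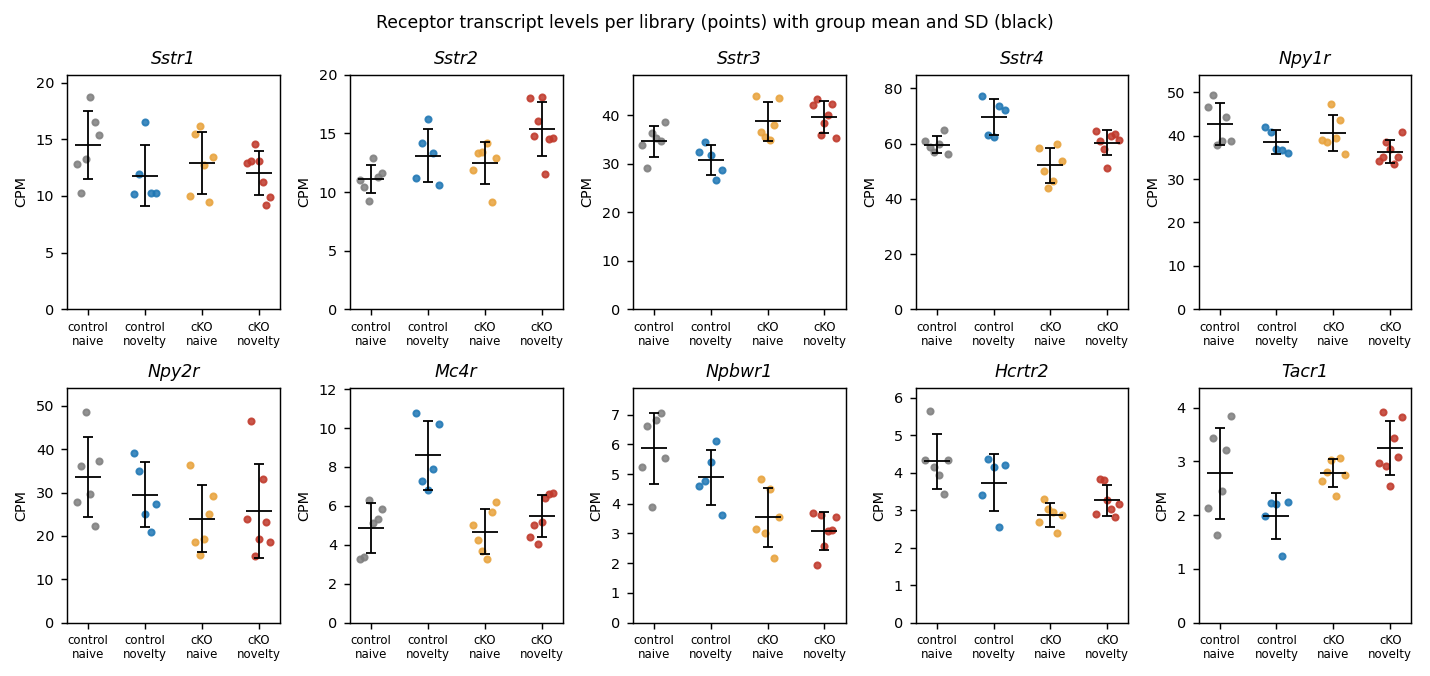
Level of each receptor in CPM (linear axis from 0) in every library (points), with group mean and SD (black), for both control groups on the left of each panel and both cKO groups on the right. Mc4r in control novelty libraries (6.84 to 10.8 CPM) lies above every library of the other groups, and Hcrtr2 in cKO naive libraries (2.39 to 3.30 CPM) lies below every control naive library.

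The comparison of novelty with naive mice asked which receptors differ after 15 min of novelty exposure. In controls Mc4r, the receptor through which melanocortins and the antagonist agouti-related peptide act, rose, and no other receptor passed the test. Among all genes 1.22% passed in this comparison, and 1.02% passed as higher (edgeR quasi-likelihood test, Benjamini-Hochberg adjusted p below 0.05 over 16100 genes). Mc4r was 3.27 CPM in the lowest control naive library, with a median of 5.21 and a highest value of 6.31 CPM. After novelty the 5 control libraries read 10.8, 7.30, 6.84, 7.91 and 10.2 CPM, so each was above every naive library. Groups did not overlap in this way for 2.40% of genes tested. The fold change was 1.72 (log2 0.79, SE 0.17, edgeR adjusted p = 0.0393). In bulk tissue, fewer or more cells of a type and less or more RNA per cell cannot be told apart, here and in the comparisons that follow. This call held in 2 of the 11 fits that left out 1 library, without control naive library 3 or without control novelty library 3, and the adjusted p over these fits ran from 0.0278 to 0.122.

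Among the somatostatin receptors of control mice, Sstr4 was 0.22 higher on the log2 scale after novelty (SE 0.06, edgeR adjusted p = 0.125) and Sstr2 0.24 higher (SE 0.11, edgeR adjusted p = 0.458). Neither passed, although Sstr4 passed in DESeq2 (adjusted p = 0.0385). The other 7 receptors had negative log2 fold changes, from -0.14 for Npy1r to -0.44 for Tacr1, and none passed. The median over the 10 receptors was -0.17, beside -0.01 over all genes tested. The differences of Tacr1, Sstr1, Sstr2, Sstr3 and Npbwr1 varied with the library numbers in this comparison. Among libraries numbered 1 to 3 the differences in mean log2 CPM were -0.10, 0.06, 0.42, -0.01 and -0.06. Among those numbered 4 and above, with 3 naive and 2 novelty libraries, they were -0.86, -0.70, -0.01, -0.38 and -0.45. The labels give these numbers no further meaning.

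In cKO mice no receptor passed after novelty, where 2.41% of all genes did, 1.92% as higher and 0.484% as lower. DESeq2 also called 0 receptors. At an unadjusted p below 0.05 in edgeR there were 3 receptors, beside 2274 of all 16339 genes tested. These were Sstr2 (log2 fold change 0.30, SE 0.11, edgeR adjusted p = 0.19), Sstr4 (0.21, SE 0.07, edgeR adjusted p = 0.179) and Npy1r (-0.16, SE 0.06, edgeR adjusted p = 0.257). Mc4r was 4.05 to 6.67 CPM in cKO novelty libraries, with a median of 5.18, and 3.25 to 6.22 CPM in cKO naive libraries, with a median of 4.61. The groups overlapped, with a log2 difference of 0.23 (SE 0.16, edgeR adjusted p = 0.581). Over the 10 receptors the median log2 fold change was 0.13 in cKO mice, beside -0.01 over all genes tested.

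Averaged over genotypes, 3 receptors rose with novelty, Sstr4, Mc4r and Sstr2, and none fell. Of all genes 6.55% passed, 4.43% as higher and 2.13% as lower. Over the 10 receptors the median log2 fold change was -0.06, beside -0.01 over all genes tested. Sstr4 rose by 16.1% (log2 0.22, SE 0.05, edgeR adjusted p = 0.00641). Its levels were 56.2 to 65.1 CPM (median 59.2) in control naive libraries and 77.1, 63.1, 62.5, 73.7 and 72.2 CPM in control novelty libraries. In cKO mice they were 44.1 to 59.8 CPM (median 52.0) without and 51.2 to 64.7 CPM (median 61.5) with novelty. In both genotypes the medians were higher after exposure and the groups overlapped.

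Mc4r rose by 0.51 on the log2 scale in this average (SE 0.13, edgeR adjusted p = 0.0109), and the 2 genotypes entered it with 0.79 and 0.23. Sstr2, whose upstream stretch is printed above, rose by 20.7% (log2 0.27, SE 0.08, edgeR adjusted p = 0.0465). Sstr2 stood at 9.24 to 12.9 CPM (median 11.1) in control naive libraries and at 11.2, 14.2, 16.2, 13.3 and 10.6 CPM in control novelty libraries. In cKO libraries it was 9.15 to 14.2 CPM (median 13.1) in the naive and 11.5 to 18.1 CPM (median 14.8) in the novelty group. Groups overlapped in both genotypes. In controls the Sstr2 difference in mean log2 CPM was 0.42 among libraries numbered 1 to 3 and -0.01 among those numbered 4 and above, and in cKO mice it was 0.34 and 0.28. The Sstr4 and Mc4r calls held in all 24 fits that left out 1 library, and the Sstr2 call in 8 of them, with adjusted p from 0.0134 to 0.102 over those fits. Npy1r was 9.82% lower (log2 -0.15, SE 0.05, edgeR adjusted p = 0.0823) and passed without cKO naive library 6 (range of adjusted p over the fits that left out 1 library 0.0484 to 0.147).

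**Figure D3:**
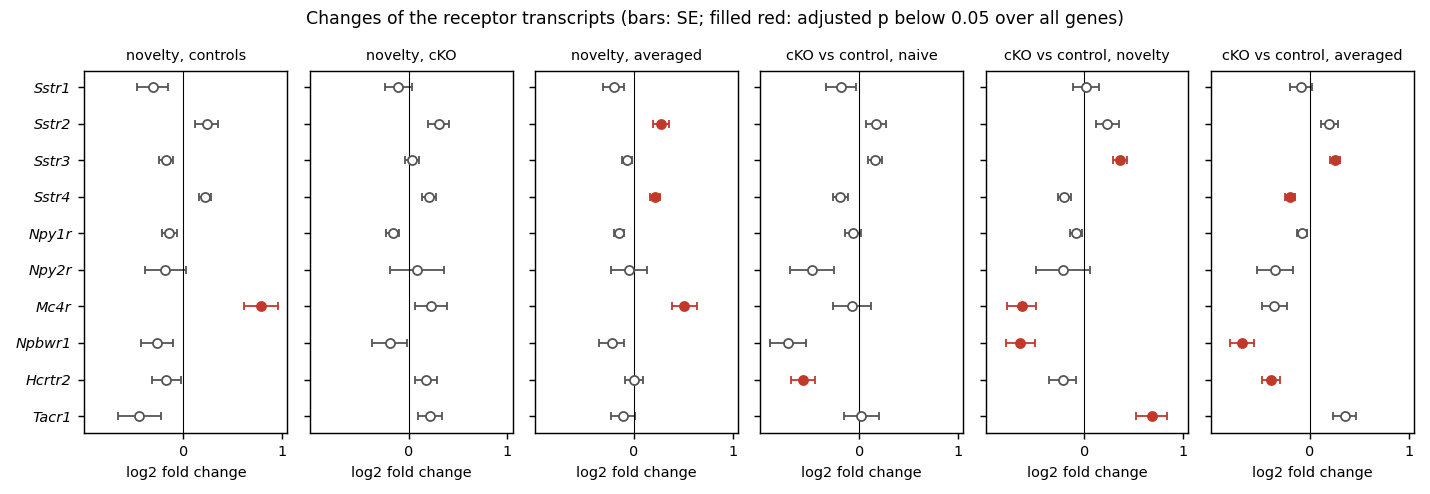
log2 fold change with its SE for each receptor in 6 comparisons, 3 of novelty against naive and 3 of cKO against control, with filled red points for an edgeR adjusted p below 0.05 over all genes. Mc4r has the highest value after novelty in controls (0.79), and Npbwr1 lies at -0.65 to -0.72 in the genotype comparisons.

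The comparison of cKO with control mice asked which receptors differ with genotype. Only cKO mice carried Cre, so the loss of Kat2a and the presence of Cre cannot be told apart. In naive mice Hcrtr2, an orexin receptor, was lower in cKO, and no other receptor passed, where 0.801% of all genes passed, 0.306% as higher and 0.495% as lower. Hcrtr2 (chromosome 9, 76225903 to 76323578, minus strand) was 3.44 to 5.64 CPM (median 4.24) in control naive and 2.39 to 3.30 CPM (median 2.91) in cKO naive libraries. All 6 cKO libraries lay below all 6 control libraries, a separation seen for 1.91% of genes tested. It fell by 32.5% (log2 -0.57, SE 0.12, edgeR adjusted p = 0.0437). The call held in 1 of the 12 fits that left out 1 library, that without control naive library 5, with adjusted p from 0.0473 to 0.101 over those fits.

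Npbwr1, which binds neuropeptides B and W, had a larger naive difference with a larger error (log2 fold change -0.72, SE 0.19, edgeR adjusted p = 0.0886). It did not pass in edgeR and did in DESeq2 (adjusted p = 0.0117). Npy2r did not pass either (log2 -0.48, SE 0.22, edgeR adjusted p = 0.381). The median over the receptors was -0.13, beside 0.00 over all genes.

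After novelty, 4 receptors differed between the genotypes: Tacr1 and Sstr3 were higher in cKO, and Mc4r and Npbwr1 were lower. Among all genes 4.53% passed, 2.13% as higher and 2.40% as lower. Tacr1, the substance P receptor (chromosome 6, 82402475 to 82560103, plus strand), read 1.98, 2.23, 2.21, 1.23 and 2.25 CPM in the 5 control novelty libraries and 2.54 to 3.91 CPM (median 3.08) in the cKO novelty libraries. All 7 cKO libraries exceeded all controls, a separation seen for 3.14% of genes. The cKO level was 1.60-fold that of controls (log2 0.68, SE 0.15, edgeR adjusted p = 0.0206). In naive mice the 2 group means were both 2.78 CPM, with control libraries at 1.62 to 3.84 CPM and cKO libraries at 2.36 to 3.07 CPM.

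Sstr3 (chromosome 15, 78537015 to 78544345, minus strand) read 32.3, 34.5, 31.7, 26.7 and 28.7 CPM in control novelty libraries. The 7 cKO novelty libraries, at 35.2 to 43.4 CPM (median 40.0), were all higher. The fold change was 1.28 (log2 0.36, SE 0.07, edgeR adjusted p = 0.00692). In naive mice the cKO libraries, at 34.9 to 43.9 CPM (median 37.3), overlapped the control libraries, at 29.1 to 38.6 CPM (median 34.9). The Tacr1 and Sstr3 calls after novelty held in all 12 fits that left out 1 library.

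Mc4r was 4.05 to 6.67 CPM in the cKO novelty libraries, below each of the control novelty values given above. Between genotypes Mc4r differed by -0.64 on the log2 scale (SE 0.15, edgeR adjusted p = 0.023), while in naive mice it was -0.07 (SE 0.19, edgeR adjusted p = 0.913). The call after novelty was lost without control novelty library 1 or without control novelty library 5, the libraries with the highest Mc4r levels (adjusted p over the 12 fits 0.0173 to 0.0689). Npbwr1 (chromosome 1, 5913707 to 5917398, minus strand) read 4.60, 4.76, 5.41, 6.10 and 3.61 CPM in control novelty and 1.95 to 3.69 CPM (median 3.13) in cKO novelty libraries. The groups overlapped, since the lowest control library lay below the highest cKO library, and the cKO level was 36.2% lower (log2 fold change -0.65, SE 0.15, edgeR adjusted p = 0.0225). Leaving out control novelty library 2 or 3 ended this call (adjusted p over the fits 0.0172 to 0.0564). Sstr4 had a log2 fold change of -0.20 between genotypes after novelty (SE 0.06, edgeR adjusted p = 0.0813), which did not pass in edgeR and did in DESeq2 (adjusted p = 0.0429).

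Averaged over exposures, Sstr3 was higher in cKO and Npbwr1, Hcrtr2 and Sstr4 were lower, where 12% of all genes passed, 5.72% as higher and 6.32% as lower. Npbwr1 differed most, at -0.69 on the log2 scale (SE 0.13, edgeR adjusted p = 0.000638). In naive mice Npbwr1 had been 3.90 to 7.05 CPM (median 6.07) in control and 2.16 to 4.84 CPM (median 3.35) in cKO libraries. Hcrtr2 followed at -0.39 (SE 0.09, edgeR adjusted p = 0.00472). After novelty its control libraries read 3.41, 4.37, 4.14, 2.54 and 4.20 CPM and its cKO libraries 2.81 to 3.83 CPM (median 3.17), which overlapped. That difference did not pass (log2 -0.22, SE 0.13, edgeR adjusted p = 0.375) and was smaller than the -0.57 of naive mice. Sstr4 was 12.9% lower in cKO (log2 -0.20, SE 0.05, edgeR adjusted p = 0.00916), and Sstr3 was 19.5% higher (log2 0.26, SE 0.05, edgeR adjusted p = 0.00177). Sstr3 and Sstr4, which bind the same peptide, thus carried opposite signs in the same libraries. These 4 calls held in all 24 fits that left out 1 library. Tacr1 (log2 0.35, SE 0.12, edgeR adjusted p = 0.0555) and Mc4r (log2 -0.36, SE 0.13, edgeR adjusted p = 0.0605) did not pass, and both passed in DESeq2 (adjusted p = 0.0394 and 0.0407).

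Whether the novelty response differed between genotypes was tested as an interaction. No receptor passed, and 0.0% of the 16744 genes tested did, with 688 genes at an unadjusted p below 0.05 in edgeR and 0 genes called by DESeq2. At an unadjusted p below 0.05 there were 2 receptors. Tacr1 had an interaction of 0.66 on the log2 scale (SE 0.24, unadjusted p = 0.0116 in edgeR), made of -0.44 in controls and 0.22 in cKO. Mc4r had one of -0.56 (SE 0.25, unadjusted p = 0.0334 in edgeR), made of 0.79 in controls and 0.23 in cKO. A difference in response between genotypes was therefore not shown for either receptor.

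Each of the 6 receptor calls made in a comparison of 2 groups had the same sign among libraries numbered 1 to 3 and 4 and above. A control novelty part has 3 or 2 libraries. For the calls of Mc4r, Hcrtr2, Tacr1 and Sstr3 the groups did not overlap, so any such split had to give the same sign. All 6 calls were made from these same libraries, so the shared signs are a description and not a further test. For Mc4r after novelty in controls the differences in mean log2 CPM were 0.97 and 0.72, and between genotypes after novelty -0.85 and -0.53. For Hcrtr2 in naive mice they were -0.62 and -0.50. Between genotypes after novelty they were 0.58 and 0.89 for Tacr1, 0.30 and 0.49 for Sstr3, and -0.71 and -0.60 for Npbwr1.

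Sstr1, Npy1r and Npy2r passed in none of the 7 comparisons. Sstr1 ranged from 9.24 to 18.7 CPM over the 24 libraries, and its group means lay between 11.8 ± 2.69 (SD, n = 5, control novelty) and 14.5 ± 2.97 CPM (SD, n = 6, control naive). Npy1r ranged from 33.4 to 49.3 CPM, with its lowest mean in cKO novelty libraries (36.3 ± 2.68 CPM, SD, n = 7). Npy2r ranged from 15.3 to 48.5 CPM, and its SEs of 0.18 to 0.37 on the log2 scale were the widest of the 10 receptors in 6 of the 7 comparisons. The exception was novelty in controls, where Tacr1 had an SE of 0.22 and Npy2r one of 0.21.

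In the authors' deposited tables, made with DESeq2, Mc4r and Sstr4 passed at an adjusted p below 0.05 for novelty in controls, none of the receptors for novelty in cKO, and Hcrtr2 and Npbwr1 for genotype in naive mice. For genotype after novelty the authors' deposited table called Mc4r, Npbwr1, Sstr3, Sstr4 and Tacr1. Of all genes in the authors' deposited tables, 2.79, 4.41, 3.18 and 8.17% passed in these 4 comparisons.

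Ligand precursors were measured in the same libraries, as transcripts of the tissue and not as peptide. Sst, the somatostatin precursor, was the most abundant, at 230 ± 47.3 CPM (SD, n = 6) in control naive and 192 ± 34.7 CPM (SD, n = 6) in cKO naive libraries. Npy was 40.9 ± 2.93, the tachykinin precursor Tac1 14.1 ± 1.93, the cortistatin precursor Cort 3.99 ± 0.985 and Pomc, the source of melanocortins, 0.910 ± 0.276 CPM in control naive libraries (SD, n = 6). Agrp, the melanocortin antagonist, was 0.15 to 0.794 CPM over the 24 libraries. Hcrt, Tac4 and Npw had 0 to 3 reads per library. Pyy had 0 reads in each library, which allows up to 3 reads or 0.0839 to 0.28 CPM depending on depth, for counting error alone. Of the 11 precursors 6 were tested, and 1 passed in at least 1 of the 7 comparisons, as 18.3% of all genes tested did. Npb, a precursor of the Npbwr1 ligands, was higher in cKO in the average over exposures (log2 fold change 0.69, SE 0.23, edgeR adjusted p = 0.0467), where 5.72% of all genes passed as higher. Npb stood at 2 to 23 reads per library, with means of 0.329 ± 0.152 (SD, n = 6) in control naive and 0.578 ± 0.227 CPM (SD, n = 6) in cKO naive libraries.

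Of 57 other neuropeptide receptors listed, 37 were expressed enough to be tested, and 4 passed in at least 1 of the 7 comparisons, as 18.3% of all 16751 genes tested did. None passed for novelty. After novelty, 2 of the 35 tested were higher in cKO, beside 2.13% of all genes: Tacr2, another tachykinin receptor, and Vipr1, a receptor for vasoactive intestinal peptide. Tacr2 was 0.177 to 0.445 CPM in control novelty and 0.594 to 1.29 CPM in cKO novelty libraries, from 3 to 26 reads (log2 fold change 1.44, SE 0.29, edgeR adjusted p = 0.0108). Vipr1 was 28.3 ± 1.81 (SD, n = 5) against 32.5 ± 1.45 CPM (SD, n = 7), or 0.20 higher on the log2 scale (SE 0.05, edgeR adjusted p = 0.0344). Averaged over exposures these 2 and the neurotensin receptor Ntsr1 (log2 0.38, SE 0.12, edgeR adjusted p = 0.0396) were higher in cKO, and the ghrelin receptor Ghsr was lower (log2 -0.97, SE 0.22, edgeR adjusted p = 0.00443). The median log2 fold change of the 37 was -0.04 there, beside -0.14 for the 10 receptors described above and 0.01 for all genes.

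Of 23 genes that carry or end signals of these receptors, 7 passed in at least 1 comparison, beside the 18.3% of all genes. Rgs4, which speeds the shut-off of Gi/o and Gq proteins, was lower in cKO in naive mice (log2 -0.46, SE 0.08, edgeR adjusted p = 0.016) and after novelty (log2 -0.34, SE 0.07, edgeR adjusted p = 0.0103). It stood at 231 ± 16.5 CPM in control naive and 168 ± 22.1 CPM in cKO naive libraries (SD, n = 6 each). Kcnj3, a subunit of the potassium channel opened by Gi/o-coupled receptors, was lower in cKO after novelty (log2 -0.19, SE 0.05, edgeR adjusted p = 0.047), and the receptor kinase gene Adrbk2 was higher (log2 0.15, SE 0.04, edgeR adjusted p = 0.0437). Averaged over exposures 5 of the 23 were lower in cKO and 0 higher, beside 6.32% lower and 5.72% higher among all genes: Rgs4, Kcnj3, the G-protein subunits Gnai1 (7.97% lower) and Gnao1 (5.14% lower) and the receptor kinase gene Grk6 (8.36% lower). Gnai3, another inhibitory subunit, was 12.9% higher after novelty in the average over genotypes (edgeR adjusted p = 0.00308).

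Cell type markers moved with genotype, and some with novelty, in the same libraries, and their part in the receptor differences was not tested. Averaged over exposures, of the marker genes tested, 3 of 6 for interneurons (Gad1, Gad2 and Pvalb), 1 of 3 for oligodendrocytes (Mog), 1 of 5 for CA1 pyramidal cells (Mpped1), 1 of 5 for dentate granule cells (C1ql2) and 1 of 4 for endothelium (Ly6c1) were lower in cKO, beside 6.32% of all genes. No gene of the CA3 list passed, and all 4 had positive values there. Between genotypes after novelty, no gene of the CA3 list passed, although all 4 had an unadjusted p below 0.05 in edgeR, with a median log2 fold change of 0.37. In the dentate list none of 5 passed there and 2 had an unadjusted p below 0.05 in edgeR, with a median of -0.53. Of all 16188 genes tested in that comparison, 3353 had an unadjusted p below 0.05 in edgeR. The marker genes that passed in that comparison were Wfs1 (log2 -0.38), Pvalb (-0.33) and Ly6c1 (-0.36), all lower in cKO. With novelty, in the average over genotypes, microglial Tmem119 was higher (log2 0.14) and P2ry12 lower (-0.16), and endothelial Ly6c1 was higher (0.23) and Cldn5 lower (-0.32). Summed interneuron markers were 758 to 857 CPM in control naive, 753 to 821 in control novelty, 682 to 749 in cKO naive and 682 to 833 CPM in cKO novelty libraries. Summed CA1 markers were 856 to 1130 and 953 to 1040 CPM in the control groups and 802 to 944 and 788 to 936 CPM in the cKO groups, in the same order of exposures. Summed oligodendrocyte markers were 1950 to 2340 and 2010 to 2410 CPM in controls and 1860 to 2290 and 1420 to 2820 CPM in cKO. Summed dentate markers were 98.4 to 252 CPM in control novelty and 53.6 to 171 CPM in cKO novelty libraries. Summed CA3 markers were 130 to 233 and 129 to 169 CPM in controls and 159 to 253 and 161 to 279 CPM in cKO, and subiculum markers 127 to 161 and 84.6 to 146 against 56.0 to 161 and 64.7 to 144 CPM.

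**Figure D4:**
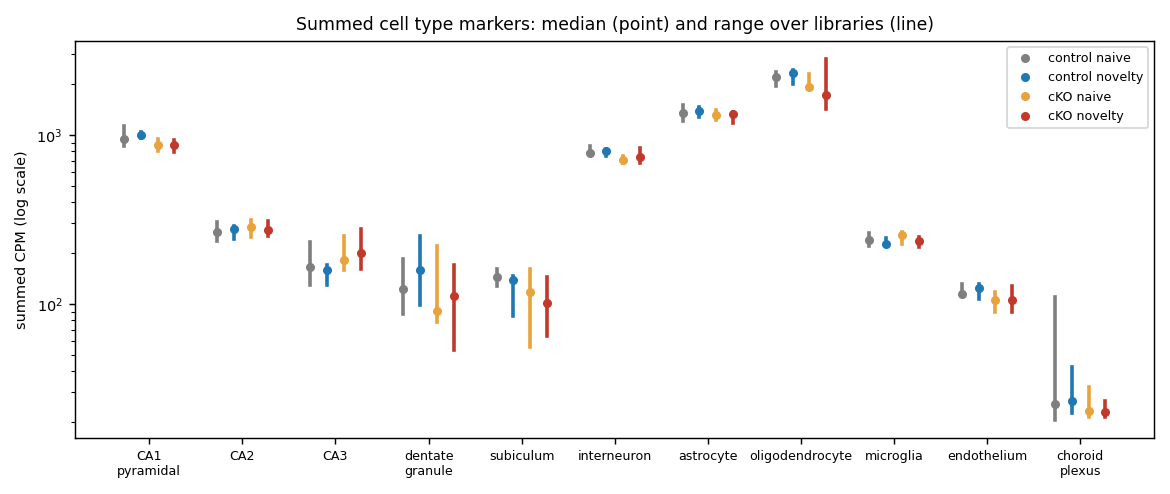
Summed CPM of each cell type marker list on a log axis, as median (point) and range over libraries (line) for the 4 groups. Oligodendrocyte, interneuron and CA1 medians are lower in the cKO groups, CA3 medians are higher, and the choroid plexus sum reached 110 CPM in 1 control naive library.

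The 3 genes most like each receptor that passed were found by Pearson's r of log2 CPM over the 24 libraries, among 11914 genes, as a description. Npbwr1 was most like Eif3f (r = 0.914), Ldb2 (0.906) and Etv1 (0.876), and Hcrtr2 most like Cct4 (0.898), Pex13 (0.879) and Nap1l3 (0.856). Sstr4 was most like Fam65a (0.868), Ncbp1 (0.859) and Grasp (0.858). For Mc4r these were Lefty1 (0.845), Rasl11b (0.839) and Pfn1 (0.836), and for Sstr3 they were Capsl (0.832), Wdr66 (0.815) and Tln2 (0.814). For Sstr2 they were Rgag4 (0.826), Polr1b (0.826) and Cdkn1a (0.802), and for Tacr1 Ptpre (0.744), Mut (0.690) and Alg8 (0.678). Spearman's rho of these pairs was 0.677 to 0.923, r without the 2 libraries farthest from the receptor's median was 0.561 to 0.919, and r after removal of group means was 0.46 to 0.876. The values share libraries, scaling and group differences, and these genes were picked for the highest r.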

How the data were processed

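Raw counts were deposited by the authors, 1 table for each library with whole numbers per Ensembl gene. A further 4 deposited tables hold comparisons of 2 groups each. Per the file headers, these give a base mean (a signal, the mean normalised count), the log2 fold change, its standard error, the p-value and the adjusted p-value of each gene. The submitters' processing notes name STAR 2.3.0, HTSeq, DESeq2 and the build GRCm38.p2, without roles. The annotation release and the strand setting were not given in the sources used here. The TruSeq RNA kit named in the labels' protocols does not mark strand, so antisense reads cannot be told apart. The 5 summary entries of each count table were left out; of all reads, those without a gene were 7.58 to 10.36% and those without a unique position 14.82 to 17.97% per library. Symbols of 16355 genes were read from the deposited comparisons, and those of 20435 more from a reference.

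Counts of the 24 libraries were tested with edgeR 4.0.16 in R 4.3.3 (TMM, filterByExpr with a minimum count of 10, robust quasi-likelihood F test, Benjamini-Hochberg adjustment over all genes, threshold 0.05). Each comparison of 2 groups used those groups, and averaged and interaction effects used all 24 libraries. Alternatives were DESeq2 1.42.0, other scalings, no filter, each library left out, a replicate block, a term for library numbers and a fit over all libraries. The code was tested on simulated data. CPM values are scaled by TMM, and levels are mean ± SD. Libraries sharing a number did not pair: the correlations of their deviations ran from -0.206 to 0.427, with at most 3 of 6 pairs over 0.1. Receptors, precursors and marker genes were named from lists, other receptors and signalling genes where they passed in at least 1 of 7 comparisons, and similar genes by the 3 highest r among genes with a mean count of at least 50. A single gene of the marker lists was left out and is not reported here. The members and lists were chosen with earlier results of these data known.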

Additional observations from a re-analysis of the deposited data

Results flagged for a closer look

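In 2 of the 40 sets of libraries examined (10 receptors in 4 groups), 1 library stood apart from the rest of its group by Dixon's criterion, which by chance marks about 1 in 20 sets. Tacr1 in control novelty library 4 was 1.23 CPM, with the nearest library at 1.98 CPM, a gap of 0.736 of the group's range. Without this library the difference of Tacr1 between genotypes after novelty was 0.58 on the log2 scale (SE 0.14, edgeR adjusted p = 0.028), and its interaction was 0.55 (SE 0.23, edgeR adjusted p = 0.897). Sstr1 in control novelty library 3 was 16.5 CPM, with the nearest library at 11.9 CPM, a gap of 0.74 of the range. Without this library the novelty difference of Sstr1 in controls was -0.45 (SE 0.13, edgeR adjusted p = 0.155) in place of -0.31.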

How the results depend on the processing

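Library numbers shared between groups did not pair the libraries: in each comparison of 2 groups, 1 library correlated best with its own number. With the replicate number as a block, the genes that passed in edgeR fell to 98 (novelty in controls), 207 (novelty in cKO), 70 (genotype in naive mice), 397 (genotype after novelty), 718 (novelty averaged) and 1337 (genotype averaged), from 196, 393, 131, 733, 1097 and 2017. Under the block 0 receptors passed for novelty in controls and 0 for genotype in naive mice. Mc4r for novelty in controls then had a log2 fold change of 0.87 (edgeR adjusted p = 0.125), Hcrtr2 in naive mice -0.57 (edgeR adjusted p = 0.0532), Npbwr1 after novelty an edgeR adjusted p of 0.0617, and Npy2r for novelty averaged had a log2 fold change of 0.0132 in place of -0.0463.

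DESeq2 called 374, 643, 454 and 1163 genes in the 4 comparisons of 2 groups, with 2 receptors for novelty in controls, 5 between genotypes after novelty and 2 for genotype in naive mice. The fit over all 24 libraries called 305 genes for novelty in controls, and 322 genes with 2 receptors for genotype in naive mice. With upper-quartile scaling 0 receptors passed for genotype in naive mice. This scaling moved the share of higher among called genes from 79.9 to 67.0% for novelty in cKO, from 67.5 to 53.9% for novelty averaged, from 46.9 to 54.6% for genotype after novelty and from 47.5 to 58.5% for genotype averaged. The averaged novelty effect of Hcrtr2, 0.0026 on the log2 scale, was -0.0148 under this scaling and -0.0027 with a term for library numbers. Sstr2 in the average over genotypes missed the threshold under this scaling, without the filter and with that term. The cause of these changes was not tested.

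Leaving out 1 library at a time gave 113 to 255 genes for novelty in controls (fewest without control novelty library 2), 238 to 452 for novelty in cKO (without cKO naive library 2), 40 to 166 for genotype in naive mice (without control naive library 6), 324 to 1025 for genotype after novelty, 850 to 1262 for novelty averaged and 1480 to 2210 for genotype averaged (each without control novelty library 2). Receptors that passed numbered 0 to 1, 0, 0 to 1, 3 to 4, 2 to 3 and 4 to 6 in this order, and 0 for the interaction. Log2 values of receptors that had not passed crossed 0 in these fits for Hcrtr2 (-0.0334 to 0.0519) and Npy2r (-0.14 to 0.0319) in the averaged novelty effect, Npy2r for novelty in cKO (-0.109 to 0.246), Mc4r (-0.174 to 0.0169) and Tacr1 (-0.106 to 0.142) for genotype in naive mice, and Sstr1 for genotype after novelty (-0.0383 to 0.159). The same held for the interactions of Npbwr1 (-0.0393 to 0.18), Npy1r (-0.0665 to 0.0237), Sstr2 (-0.0137 to 0.149) and Sstr4 (-0.0591 to 0.0267). Read counts of 17 to 153 per library limit Tacr1 and Hcrtr2.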
